A study of Mus musculus with 2 samples.

Results

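Sertoli cells that carried at least 1 transcript of Amh and few transcripts of dividing cells were examined in the mouse testis at 13 days of age. They were chosen by their own measured counts, as follows, so the genes named in this rule are described and not compared as findings. A barcode was kept as a cell with at least 1000 unique molecular identifiers (UMIs), 500 genes and at most 20% mitochondrial UMIs. It was taken as a Sertoli cell when Aard, Cst9, Cst12 and Sox9 summed to at least 10 per 10000 of its UMIs and the germ cell genes Ddx4 and Dazl to fewer than 3 UMIs. It was taken as non-dividing when Mki67, Top2a, Ube2c and Cenpf summed to fewer than 3 UMIs, and as Amh-detected with 1 or more Amh UMIs. The rule found 4679 such cells among 22096 cells in all, 949 of 11232 in the control and 3730 of 10864 in the mutant library. The non-dividing Sertoli cells without an Amh UMI, called Amh-zero here, were 2887 and 2861, and served as the comparison inside each library.

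Sertoli cells are the somatic cells of the seminiferous tubule and surround and feed the germ cells. Amh encodes anti-Müllerian hormone, a secreted member of the TGF-β family that makes the Müllerian ducts regress in the male fetus and signals through the type II receptor Amhr2 to SMAD1 and SMAD5. Its gene is bound and activated by Sox9, Nr5a1, Gata4 and Wt1 and is shut down as Sertoli cells stop dividing, build the blood-testis barrier and respond to androgen.

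The study profiled whole testis of C57BL/6 mice with 10x 3' V3 chemistry and asked what the constitutive proteasome does in spermatogonia. The control mice, labelled WT, were Psma7 F/+, with a floxed and a normal copy of the gene for the proteasome subunit α4. The knockout mice, whose library is called the mutant library here, were Psma7 F/-;Stra8-Cre KI/+, with a floxed copy, a deleted copy and a Cre inserted at Stra8, a gene that germ cells switch on before meiosis. The control's label gives no Cre, so the Cre insertion and the loss of Psma7 cannot be told apart, and the deleted copy is absent from every cell of the knockout animals, Sertoli cells included. There was 1 library per genotype, of 146528736 and 112746953 UMIs, and the number of animals in each is not given. Differences between the libraries therefore stand without replicates and without tests, and all 95% intervals below reflect only counting error. Levels are counts per 1000000 UMIs of the cells summed (CPM). Of the cells, 29 had a barcode found in both libraries, 1 of them Amh-detected in each.

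Of the label's 5 markers, 2 were genes of the rule, Amh and Sox9, and were high by that choice. Over the Amh-detected cells Sox9, the transcription factor that sets Sertoli identity, stood at 849.7 CPM in control and 1237 CPM in mutant cells, against 31.0 and 62.0 CPM in cells of the interstitial stroma. Sox9 was part of the rule, as were the tubule products Aard, Cst9 and Cst12. The stromal cells were taken below the rule's minimum of these genes, so the contrast in Sox9 was set by the choice of cells. Markers outside the rule were low in the control. Hsd17b1, a steroid dehydrogenase of fetal and early postnatal Sertoli cells, was at 14.4 CPM in the control and 57.6 in the mutant library, against 0.535 and 1.73 in stroma. Gdnf, the growth factor that maintains spermatogonial stem cells, was at 29.1 and 87.7 CPM against 10.3 and 11.3. Pcdh17, an adhesion protein, was at 19.3 and 91.2 CPM against 14.9 and 11.5, so that in the control it separated Amh-detected cells from stroma little.

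Amh-detected cells were read more deeply than Amh-zero cells. The Amh-detected cells had a median of 7813 UMIs in the control and 4665 in the mutant library, and the Amh-zero cells 4538 and 3259. Mitochondrial UMIs were also a larger share of them, at a median of 9.81% and 10.96% against 8.40% and 8.43%. Scrublet marked 28 of the Amh-detected cells in the control (2.95%) and 104 in the mutant library (2.79%) as likely doublets, close to its 2.88% and 2.80% of the Amh-zero cells.

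Amh (ENSMUSG00000035262) occupies bases 80805243 to 80807648 of chromosome 10 (mm10, plus strand), 318 bases after the end of Sf3a2 and 847 bases before Jsrp1, which runs the other way. It was found in 949 of 3836 non-dividing Sertoli cells of the control, 24.7% (Clopper-Pearson interval 23.4 to 26.1), and in 3730 of 6591 of the mutant library, 56.6% (55.4 to 57.8). Each cell was then thinned to 3000 UMIs, which left out 735 and 1987 shallower cells. At that equal depth the shares were 14.0% (12.8 to 15.3) and 48.0% (46.5 to 49.5). In percentage points the gap between the libraries depended on the depth chosen, and thinned to 2000 UMIs the shares were 10.3% and 36.8%.

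Within each library the share climbed with depth far more than the level did. In the control it was 6.17% of cells with 1000 to 2000 UMIs and 49.4% of cells with 10000 or more. In the mutant library the same classes gave 28.8% and 81.6%. Over those depths the Amh level lay between 47.4 and 61.2 CPM in the control and between 246 and 275 CPM in the mutant library. It was lowest in the shallowest cells of both, with counting intervals of 29.7 to 71.7 and 218 to 277 CPM that overlapped those of the deepest, 57.0 to 65.7 and 261 to 278 CPM. Amh-detected and Amh-zero cells are described as 2 classes of detection and not as cell types.

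**Figure D1:**
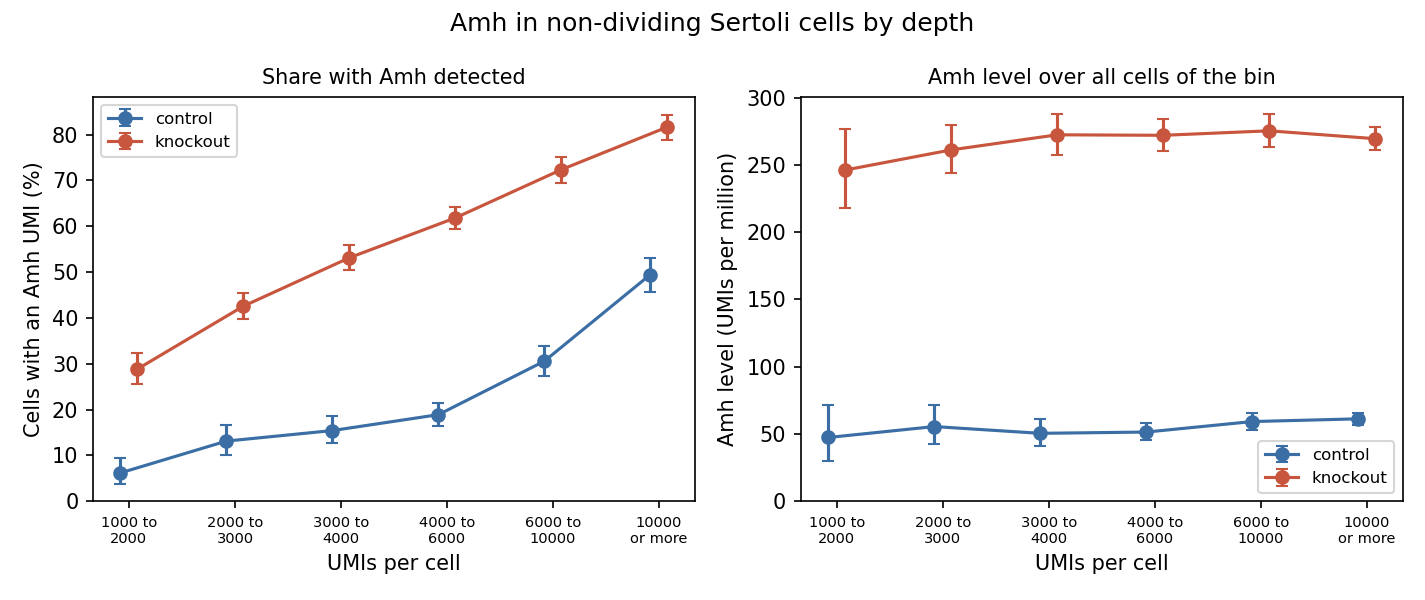
Share of non-dividing Sertoli cells with an Amh UMI (left, percent) and the Amh level summed over all of them (right, CPM) by UMIs per cell, for both libraries, with 95% counting intervals. The share climbs in both libraries, from 6.17% to 49.4% and from 28.8% to 81.6%, while the level stays below 61.3 in the control and above 246 in the mutant library.

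Other cells held some Amh as well. At 3000 UMIs, 0.457% of interstitial stromal cells of the control and 1.77% of the mutant library held an Amh UMI, and the germ cells gave 0.521% and 2.18%. Before thinning 1 of 84 macrophages and 3 of 72 did, at median depths of 11808.5 and 15237 UMIs. Barcodes with 10 to 100 UMIs, which hold mostly free RNA, had Amh at 21.9 and 163 CPM. The stromal and germ cell shares were far below those of the non-dividing Sertoli cells at the same depth.

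Summed over all non-dividing Sertoli cells, whatever their Amh count, Amh stood at 57.7 CPM (54.8 to 60.6) in control cells and 270.1 CPM (264.9 to 275) in knockout cells. The log2 ratio was 2.23 (2.15 to 2.30). Over the alternatives tried the ratio ran from 2.08 to 2.38, and with 10% of free RNA subtracted it was 2.19. Dividing Sertoli cells held Amh too. At 3000 UMIs, 15 of 82 of them had an Amh UMI in the control (18.3%, 10.6 to 28.4) and 183 of 513 in the mutant library (35.7%, 31.5 to 40.0). In the mutant library that share lay below the 48.0% of the non-dividing cells, and in the control the intervals overlapped.

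Most Amh-detected cells held very few copies. In the control 66.0% of them had a single Amh UMI and 2 cells had 10 or more, with a maximum of 11. In the mutant library 44.3% had a single UMI, 145 cells had 10 or more, and the maximum was 74. At 3000 UMIs per cell, 383 control cells held 1 Amh UMI, 43 held 2 and 8 held 3 or more, against 1295, 542 and 373 in the mutant library. As shares at that depth, 12.4% of control cells held 1 Amh UMI and 1.39% held 2, against 28.1% and 11.8% in the mutant library. The mutant library thus had the larger share of cells in every class from 1 to 9 Amh UMIs. At that depth 0 cells of either library held 10 or more, and the maxima were 5 and 9. The 145 cells of the mutant library with 10 or more as found had a median depth of 21363 UMIs, and the 2 control cells 47561.5. The variance of Amh over its mean was 1.18 in the control, where 1089 genes of like mean (within 1.2-fold) had a median of 1.08 and 148 lay above Amh. In the mutant library it was 1.53, against a median of 1.21 over 328 such genes, 32 of them above Amh.

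**Figure D2:**
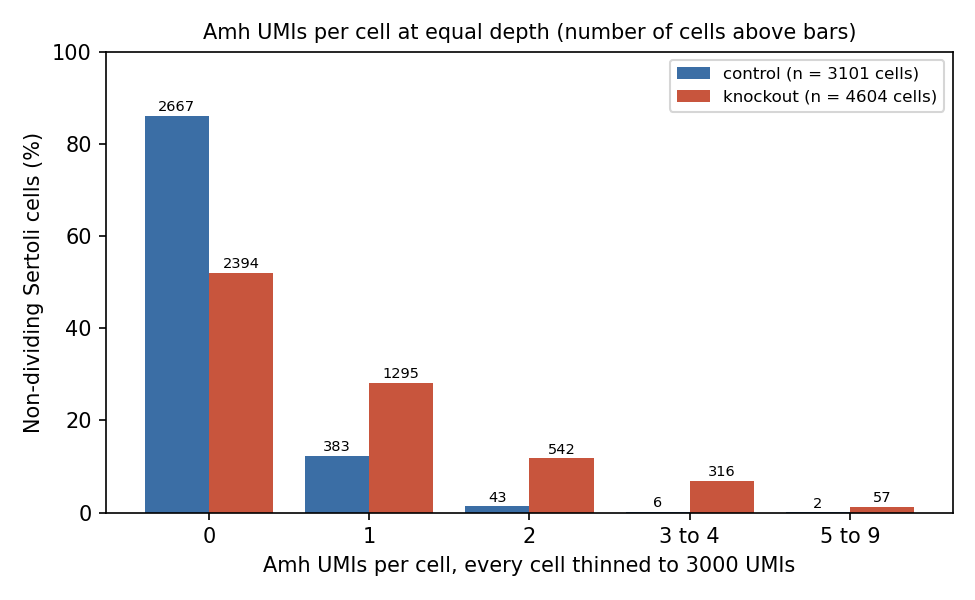
Percent of non-dividing Sertoli cells by the number of Amh UMIs, every cell thinned to 3000 UMIs, with the number of cells above each bar. In the control 2667 of 3101 cells stay at 0, and in the mutant library 2394 of 4604, with 373 cells at 3 or more against 8.

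At the edge of the rule, cells with 1 Amh UMI as found had Inha at 306 CPM in the control against 212 in cells with 0, and at 271 against 209 in the mutant library. Inha encodes the α subunit of inhibin, which Sertoli cells secrete to hold back follicle-stimulating hormone. At equal depth, Inha stood at 220.3, 314 and 419 CPM in control cells with 0, 1 and 2 Amh UMIs, and at 244, 333, 395 and 481 CPM in knockout cells with 0, 1, 2 and 3 or more. Inha was thus higher in each class with more Amh, in both libraries. The classes with 0 and 1 Amh UMI had counting intervals that did not overlap, 210.2 to 231 against 283 to 348 in the control.

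Clu, a secreted chaperone that is among the most abundant Sertoli products, followed the same order at equal depth. It was at 1013, 1495 and 2264 CPM in control cells with 0, 1 and 2 Amh UMIs, and at 1226, 1634, 1868 and 2164 CPM in the mutant library. Hsd17b1 went from 32.0 to 48.9, 53.5 and 76.0 CPM in the mutant library and from 6.00 to 13.9 CPM between control cells with 0 and 1 UMI. Sox9 kept no such order, at 1055, 1018 and 1147 CPM in the control. The other Sertoli genes of the rule, Aard, Cst9 and Cst12, rose in the same order as Inha and Clu in both libraries. In the control Aard was at 2201, 2789 and 3364 CPM, Cst9 at 574, 943 and 1628, and Cst12 at 713, 970 and 1403. Cst9 in the mutant library was at 355, 551, 750 and 888 CPM. The order was thus shared by other Sertoli products. Gdnf in the mutant library lay between 99.2 and 113 CPM in all 4 classes.

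**Figure D3:**
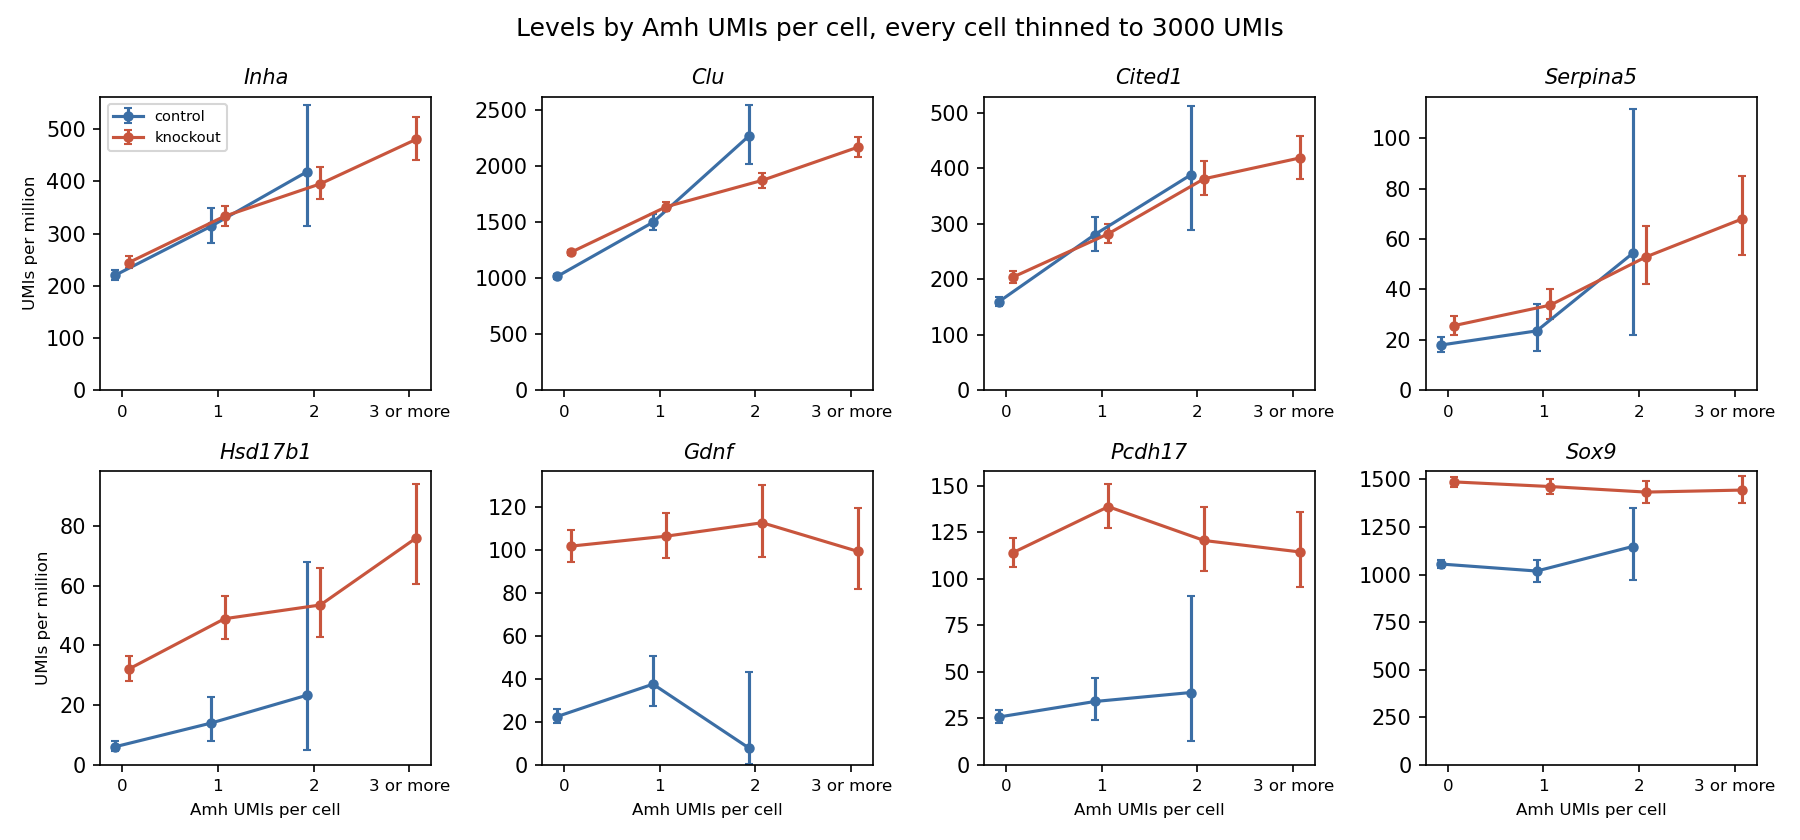
Level of 8 genes (CPM) by Amh UMIs per cell at 3000 UMIs, with 95% counting intervals, for both libraries. The control's class of 3 or more, 8 cells, is left out. Inha, Clu, Cited1 and Serpina5 are higher in each class with more Amh in both libraries, and Sox9 is not.

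RNA of other cells fell across the same classes. The summed level of 15 genes of other somatic cells was 526 CPM in control cells with 0 Amh UMIs, 355 with 1 and 93.0 with 2, and in the mutant library 1032, 442, 271 and 212 CPM. These 15 were Dcn, Col1a1, Dlk1, Tcf21, Pdgfra, Acta2, Myh11, Cyp17a1, Insl3, Cyp11a1, C1qa, Csf1r, Pecam1, Cdh5 and Rgs5. Malat1, a nuclear RNA, was 16658, 14399 and 12907 CPM in the control and 24424, 22471, 20902 and 19632 CPM in the mutant library. The part of this RNA in the differences below was not tested gene by gene, and values for purer cells stand beside them. These had at least 30 UMIs of the Sertoli genes per 10000 and fewer than 3 UMIs over those 15 genes, a choice made after seeing the data. They were 679 and 2900 Amh-detected and 1745 and 1983 Amh-zero cells, and depth was standardised over 10 bins.

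Between Amh-detected and Amh-zero cells, a gene was called when it differed at least 1.5-fold with a counting interval off no difference. In the control 110 of 7774 genes were called higher in Amh-detected cells (1.41%) and 163 lower (2.1%), and in the mutant library 71 of 8054 higher (0.882%) and 310 lower (3.85%). Of these, 41 were higher in both libraries, which is 37.3% of the control's and 57.7% of the mutant library's list, and 124 were lower in both, 76.1% and 40.0%. None were called in opposite directions. Those calls compare cells inside 1 library each and say nothing of animals.

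Inha was the one gene of the AMH and gonadotropin axis outside the rule called higher in both libraries. It was at 406 CPM in Amh-detected and 212 CPM in Amh-zero cells of the control, and at 463 and 209 CPM in the mutant library. The log2 ratios were 0.94 (0.87 to 1.00) and 1.15 (1.09 to 1.21), and 0.49 and 0.58 in purer cells at standardised depth. Amhr2, the receptor of AMH itself, was at 360.1 against 266 CPM and 270.1 against 185 CPM, log2 ratios of 0.44 and 0.55 that stayed under the 1.5-fold call. Inhbb, the β subunit that makes inhibin B with Inha, was at 0.19 and 0.25. Fshr, the receptor of follicle-stimulating hormone, was at 0.14 and 0.11.

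Of the AMH and gonadotropin axis, 15 genes outside the rule were measured in the control and 17 in the mutant library. In each, 1 was called higher, Inha, and 1 lower, and their median log2 ratio was -0.05 in both, beside -0.04 and 0.00 over all genes. The shares of all genes called higher and lower were 1.41% and 2.1% in the control, and 0.882% and 3.85% in the mutant library. The lower gene was Fstl3, a binder of activin, in the control (-0.67) and Inhba, the activin βA subunit, in the mutant library (-1.16). Inhba stood at 0.24 in the mutant library in purer cells at standardised depth. The inhibitory Smad7 was at -0.16 and -0.23, and the BMP target Id1 at -0.43 and -0.56. In purer cells 1 gene of each library was again called lower, Fstl3 in both, at -0.73 and -0.61, and Inha was the 1 called higher. All genes of purer cells gave 1.65% higher and 1.4% lower in the control, and 1.52% and 1.29% in the mutant library. At standardised depth in purer cells Fstl3 was at -0.25 in the control and -0.64 in the mutant library.

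No factor known to bind or regulate Amh passed the call between Amh-detected and Amh-zero cells. Of 11 measured, 0 were called in either library, and their medians were -0.10 and -0.02. Over all genes 1.41% were called higher and 2.1% lower in the control, and 0.882% and 3.85% in the mutant library. At those shares, 0 calls among 11 genes does not set the list apart from all genes. Gata1, an erythroid and Sertoli factor, was the lowest in the control at -0.38 and Sox8, a relative of Sox9, in the mutant library at -0.32. Sox9, inside the rule, was at -0.21 and -0.22. Nr5a1 was at 56.6 against 55.9 CPM in the control and 55.3 against 56.1 CPM in the mutant library. Gata4 stood at -0.15 and -0.13, Dmrt1 at 0.02 and 0.06, and Ctnnb1, the β-catenin gene, at 0.12 and 0.10.

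Genes of the androgen response were called higher more often than lower. Serpina5, a protease inhibitor, was at 34.0 against 17.1 CPM in the control and 53.3 against 24.1 in the mutant library, log2 ratios of 0.99 (0.76 to 1.22) and 1.14 (0.96 to 1.33). Eppin, another protease inhibitor, was at 0.79 and 1.11, and the dopamine receptor Drd4 at 1.00 and 0.77. These 3 kept ratios of 0.66 to 1.00 in purer cells at standardised depth. Of the list, 4 of 11 measured genes were called higher in the control and 3 of 8 in the mutant library, with medians of 0.30 and 0.29. In each library 1 was called lower. Over all genes 1.41% were called higher and 2.1% lower in the control, and 0.882% and 3.85% in the mutant library. In purer cells 3 of 9 and 3 of 7 were called higher and 0 lower. There 1.65% and 1.52% of all genes were higher and 1.4% and 1.29% lower. Rhox5, an androgen-dependent homeobox gene, was the other of the control that was called, at 0.76. Osr2 was called lower in both, at -1.99 and -1.19, and at 0.37 and 0.15 in purer cells at standardised depth.

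Among the tubule products a few abundant ones stood out. Clu was at 1679 against 938 CPM in the control and 1882 against 1049 CPM in the mutant library, a log2 ratio of 0.84 in both. Of the products of maturing Sertoli cells, 4 of 14 were called higher and 0 lower in the control, and 5 of 13 higher and 2 lower in the mutant library, with medians of 0.09 and 0.12. Beside these, 1.41% of all genes were called higher and 2.1% lower in the control, and 0.882% and 3.85% in the mutant library. The glutathione transferases Gstm7 (0.77 and 0.65) and Gstm6 (0.68 and 0.66) were called in both. The fatty acid binder Fabp3 (-0.29 and -0.74) was among the lowest. In purer cells 1 of 14 products was called higher and 0 lower in the control, and 1 of 13 higher and 1 lower in the mutant library. The shares of all genes there were 1.65% and 1.4% in the control, and 1.52% and 1.29% in the mutant library.

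The other genes of the rule of largest ratios were products of several kinds. The secreted phosphoprotein Spp1 was at 81.9 against 39.5 CPM in the control and 111 against 47.7 in the mutant library, and the transcriptional coactivator Cited1 at 304 against 147 and 346 against 171. Hmgb3, a chromatin protein, had log2 ratios of 0.90 and 0.89, Gamt of creatine synthesis 0.85 and 0.84, the glutaminyl cyclase Qpct 0.84 and 1.02, and Fndc5, the precursor of irisin, 0.91 and 0.80. In purer cells at standardised depth these 6 lay between 0.33 and 0.67 in both libraries.

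Of the label's markers outside the rule, Hsd17b1 followed Amh most. It was at 14.4 against 4.89 CPM in the control (log2 ratio 1.55, 1.16 to 1.96) and 57.6 against 24.8 CPM in the mutant library (1.21, 1.03 to 1.40). Under the 20 CPM minimum it was not counted in the control. Gdnf was at 29.1 against 19.8 CPM in the control (0.56) and 87.7 against 90.6 in the mutant library (-0.05). Pcdh17 changed side with depth. It was lower in Amh-detected cells at -0.37 and -0.35, and at 0.27 and 0.11 in purer cells at standardised depth.

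**Figure D4:**
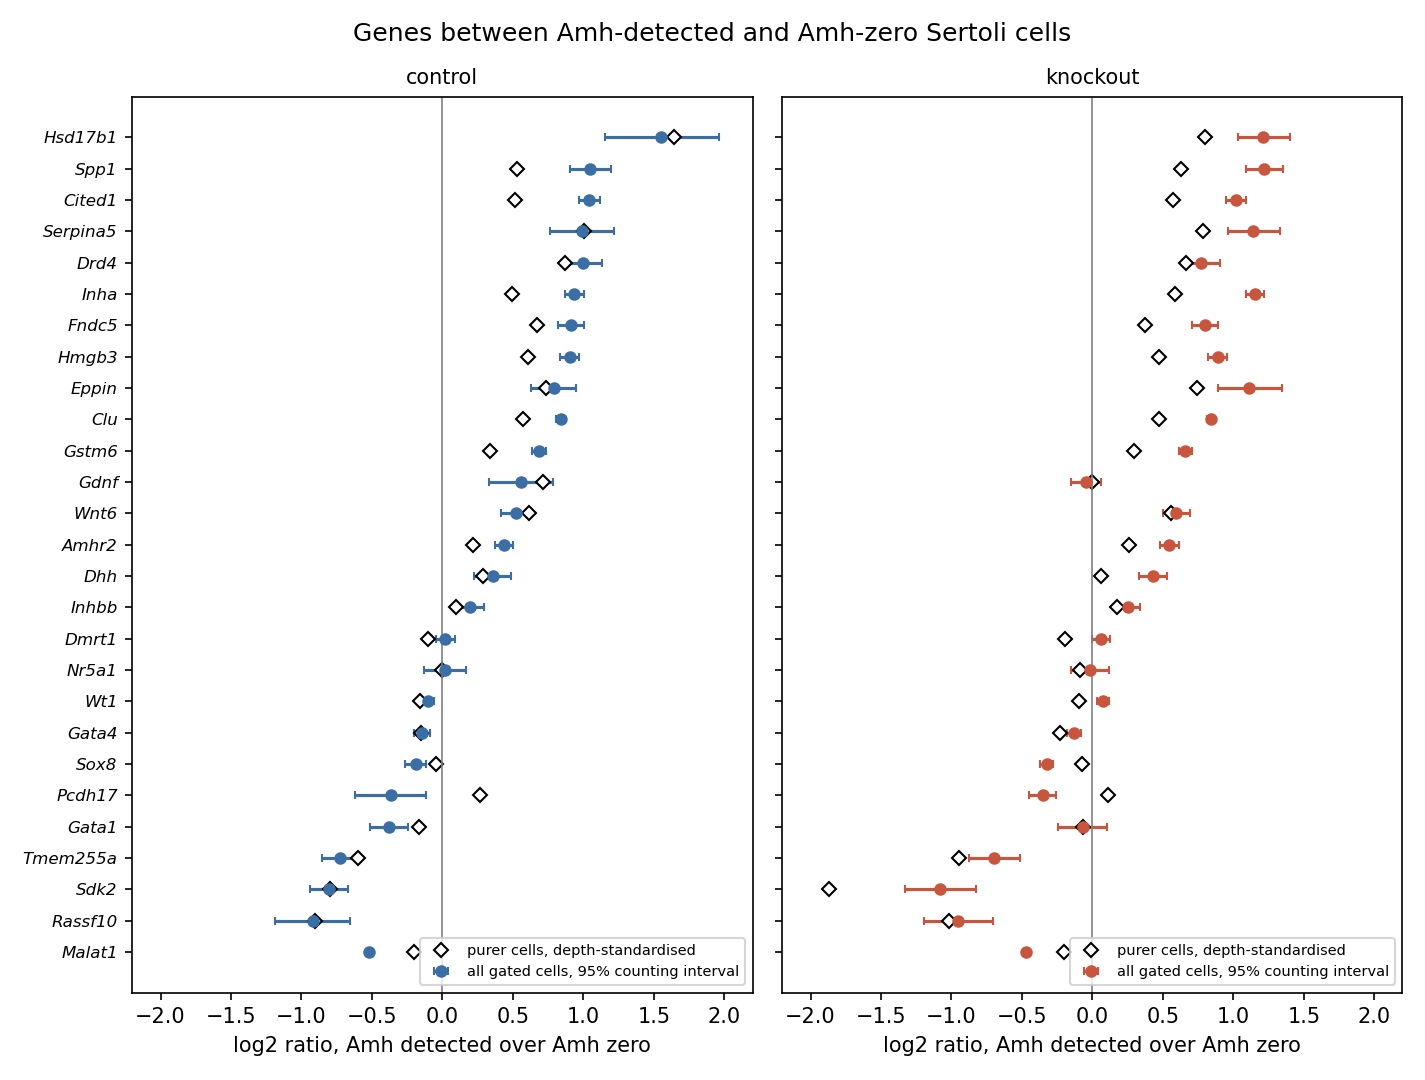
Log2 ratio of Amh-detected over Amh-zero Sertoli cells for 27 genes in both libraries. Filled points with 95% counting intervals use all cells of the rule, open diamonds use purer cells at standardised depth. The upper genes from Hsd17b1 to Clu stay right of 0 in both readings, the regulators from Dmrt1 to Sox8 lie between -0.32 and 0.08, and Pcdh17 changes side.

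The lower side was led by genes of stromal, myoid and other non-Sertoli cells. Among the 10 lowest were Adcy7, Fhl2, Nrp1, Pdgfra, Igfbp7, Tpm2, Nhsl2, Myh11 and Vcam1, with log2 ratios from -1.83 to -1.19 in the control and from -1.42 to -1.22 in the mutant library. Myh11, the smooth muscle myosin of peritubular cells, was at 12.8 against 45.7 CPM and 17.1 against 39.8 CPM. Pdgfra, a receptor of interstitial stroma, was at 21.2 against 50.3 CPM and 48.6 against 124 CPM. The summed level of 7 stromal markers was 435 against 813 CPM in the control and 919 against 1901 CPM in the mutant library, and that of 7 Leydig cell markers 28.7 against 56.7 and 32.7 against 131 CPM. Macrophage markers went the other way, at 69.3 against 10.9 and 43.1 against 27.1 CPM. In purer cells they stood at 8.43 against 10.3 and 17.3 against 20.2 CPM. The markers C1qa and Csf1r are among the 15 genes limited in choosing those cells, so a lower level there was set in part by the choice. Of the 7 stromal, 7 Leydig and 8 macrophage markers, 0 were at a count of 0 in either class. Their part in these lower genes was not tested. In purer cells at standardised depth Fhl2 and Igfbp7 stood above 0 in the control, at 0.10 and 0.17. Myh11 and Pdgfra stood there at 1.14 and 0.44. Both are among the 15 genes whose UMIs were limited in choosing purer cells, so no conclusion is drawn from their values.

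Genes that stayed lower in purer cells were of another kind. There 50 genes were called higher and 30 lower in both libraries, beside 1.65% and 1.4% of all genes in the control and 1.52% and 1.29% in the mutant library. Among the 10 lowest there were Rassf10, a Ras-association protein, the lipid-transfer protein Esyt3, the adhesion protein Sdk2, the guanine nucleotide exchange factor Arhgef28, Tmem255a and the actin regulator Phactr1. Over all cells of the rule, Rassf10 was at 15.1 against 28.4 CPM and 11.5 against 22.1 CPM, log2 ratios of -0.91 and -0.95, and at standardised depth in purer cells -0.90 and -1.02. Sdk2 was at 56.5 against 98.7 CPM in the control and 10.1 against 21.3 CPM in the mutant library. Tmem255a was at 72.7 against 120.6 and 22.1 against 35.8 CPM, and Phactr1 at 174 against 273 and 67.8 against 129 CPM.

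Niche signals that were called were lower in Amh-detected cells, with 1 exception in the mutant library. Of 13 measured in the control 0 were called higher and 4 lower, and of 16 in the mutant library 1 higher and 5 lower, with medians of -0.16 and -0.24, beside 1.41% and 2.1% of all genes in the control and 0.882% and 3.85% in the mutant library. In purer cells the calls were 0 higher and 1 lower of 9 in the control, and 1 higher and 0 lower of 12 in the mutant library. All genes of purer cells gave 1.65% higher and 1.4% lower in the control, and 1.52% and 1.29% in the mutant library. Wnt6, a Wnt ligand of Sertoli cells, was at 0.52 and 0.59 and Dhh, the hedgehog ligand that Leydig precursors receive, at 0.36 and 0.43. The retinoic acid hydroxylase Cyp26b1 was at -1.22 and -1.11 and Igf1 at -1.12 and -1.13, and in purer cells at standardised depth Cyp26b1 stood at -0.20 and -0.04. Kitl, which binds the Kit receptor of differentiating spermatogonia, was at 0.11 and 0.04.

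Growth arrest genes and the machinery of energy and protein turnover were measured as well. Of 8 growth arrest genes 0 were called in the control, and in the mutant library 1 was called higher and 2 lower. The shares of all genes called higher and lower were 1.41% and 2.1% in the control, and 0.882% and 3.85% in the mutant library. The inhibitor Cdkn2d was at 0.83 there, Cdkn1c at -1.08 and the cyclin Ccnd3 at -0.88, beside 0.19, -0.54 and -0.28 in the control. In purer cells of the mutant library 1 of 6 was called higher and 0 lower, with Cdkn1c at -0.51 and Ccnd3 at -0.15. All genes gave 1.52% higher and 1.29% lower there. The 31 proteasome subunits other than Psma7 had medians of 0.33 and 0.21, and 22 genes of oxidative phosphorylation 0.29 and 0.21, with 0 called in either list. In purer cells 1 proteasome subunit was called higher in the control, where 1.65% of all genes were. In the mutant library 2 subunits and 2 oxidative phosphorylation genes were called higher, where 1.52% of all genes were. Psma7 itself was at 0.49 in the control and 0.46 in the mutant library.

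The knockout and the control library were then compared over the Amh-detected cells. Psma7 (ENSMUSG00000027566, chromosome 2 at 180036374 to 180042433, minus strand) was read first to check the genotype labels. It was at 273 CPM in control and 92.5 CPM in mutant cells, 33.9% of the control level and a log2 ratio of -1.56 (-1.64 to -1.48), and in Amh-zero cells at 194 and 67.5 CPM, -1.52. Which exons are floxed is not given, so the counted 3' tag may lie outside the deleted part. Of 7944 genes, 616 were called higher in the mutant library (7.75%) and 368 lower (4.63%), around a median of -0.06. Since the rule needs an Amh UMI and the control has less Amh, its cells here are 24.7% of its non-dividing Sertoli cells, against 56.6% in the mutant library.

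Hsd17b1, Pcdh17 and Gdnf, the label's markers outside the rule, were higher in the mutant library. Hsd17b1 was at 57.6 against 14.4 CPM (log2 ratio 2.0, 1.76 to 2.26), Pcdh17 at 91.2 against 19.3 CPM (2.23, 2.03 to 2.45) and Gdnf at 87.7 against 29.1 CPM (1.59, 1.42 to 1.77). In Amh-zero cells the same ratios were 2.34, 2.22 and 2.19. The differences of these 3 genes were thus present in cells without an Amh UMI as well. Of the list of immature Sertoli genes and thyroid signal, 5 of 8 were called higher and 0 lower, with a median of 0.82. Of all genes, 7.75% were called higher and 4.63% lower. The 2 lowest members, Igf1r (-0.32) and Insr, had counting intervals below 0. Hsd17b3, which makes testosterone in the fetal Sertoli cell, was at 187 against 120 CPM (0.64), and the thyroid hormone receptor Thrb at 1.00. The orphan receptor Nr2f2, a stromal gene as well, was at 1.07, and at 0.16 with a Sertoli minimum of 30 per 10000.

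Of the AMH and gonadotropin axis, 5 of 16 measured genes were called higher and 0 lower, beside 7.75% and 4.63% of all genes. All 5 were inhibitors or targets of BMP and TGF-β signalling. Smad6, the inhibitor of BMP receptors, was at 62.1 CPM in the mutant library and 7.87 in the control, a log2 ratio of 2.97 (2.66 to 3.32), and Smad7 at 360.0 and 206 CPM (0.80). The Id genes, which block differentiation factors and are direct BMP targets, were at 0.95 (Id1), 0.63 (Id2) and 1.25 (Id3). In Amh-zero cells Smad6 was at 2.53, Smad7 at 0.87 and the Id genes at 1.08, 0.97 and 1.39.

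The ligands and receptors of the axis were close between the libraries. Inha was at 0.19 in Amh-detected and -0.02 in Amh-zero cells, Inhbb at 0.29 and Fshr at 304 against 318 CPM (-0.06). Amhr2 was the lowest of the axis, at 270.1 against 360.1 CPM (-0.42, -0.47 to -0.36), and at -0.52 in Amh-zero cells. The type I receptors Bmpr1a and Acvr1 were at -0.08 and 0.08, the activin receptor Acvr2a at 0.03, and the signal carriers Smad1, Smad5 and Smad4 at 0.31, -0.17 and -0.06. Fstl3 was at -0.15. The axis had a median of 0.14.

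Among the regulators of Amh, 1 of 11 was called higher and 2 lower, beside 7.75% and 4.63% of all genes, with a median of -0.03. Sox8 was at 373 against 226 CPM (0.72), and Sox9 at 1237 against 849.7 CPM (0.54). Gata1 was at 32.5 against 66.2 CPM (-1.03, -1.17 to -0.88) and Wt1, which keeps Sertoli identity, at 487 against 745 CPM (-0.61, -0.65 to -0.57). Gata4 was at 0.06, Gata6 at 0.02, Nr5a1 at -0.03, Dmrt1 at -0.04, Nr0b1 at -0.26, Ctnnb1 at 0.12 and Zfpm2, the cofactor of Gata4, at 0.50. Activators of Amh were therefore found on both sides and mostly near the median of all genes.

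Androgen-response genes were called on both sides. Of 10 measured, 2 were called higher and 3 lower, beside 7.75% and 4.63% of all genes, with a median of -0.29. Rhox5 was at 13.9 against 34.7 CPM (-1.32), the protease Corin at -0.91 and Eppin at -0.87, and in Amh-zero cells Rhox5 was at -1.94. Serpina5 (0.65) and Osr2 (1.66) were the 2 called higher. In purer cells, where 6.86% of all genes were called higher and 4.79% lower, the counts were 0 and 3 of 9.

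The products of maturing Sertoli cells and the barrier genes that were called were all lower. Of 14 products 0 were called higher and 3 lower, beside 7.75% and 4.63% of all genes. Among the 3 were Tsx (-2.43) and Defb36 (-0.81), while Clu was at 0.16. In purer cells 1 of 13 products was called higher and 2 lower, where 6.86% and 4.79% of all genes were. Of 13 barrier genes 0 were called higher and 2 lower, with a median of -0.17. Cdh2, N-cadherin, was at 249 against 425 CPM (-0.77) and Cldn11, the claudin that seals the barrier, at 204 against 311 CPM (-0.61). Tjp1 was at -0.55 and the gap junction gene Gja1 at 0.42. In Amh-zero cells Cdh2 was at -0.84 and Cldn11 at -0.73.

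Of 14 niche signals 6 were called higher and 2 lower, beside 7.75% and 4.63% of all genes, with a median of 0.42. Next to Gdnf, the growth factor Pdgfa was at 42.2 against 14.8 CPM (1.51), the hedgehog ligand Dhh at 0.60, the chemokine Cxcl12 at 1.34, Cyp26b1 at 1.11 and Igf1 at 0.92. The last 3 are stromal genes as well, and the 7 stromal markers summed to 919 CPM in the knockout and 435 CPM in the control library over these cells. With the Sertoli minimum at 30 per 10000, Cxcl12 was at 0.05 and Igf1 at -0.41. The lower pair were Notch1 (-0.66) and its target Hes1 (-0.63). Kitl was at 0.17 and Wnt6 at 0.31.

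The 10 highest ratios of the ranked genes were those of Rimbp2 (3.83), Epha5 (3.35), Smad6, Rtn4rl1 (2.38), Ccnb1ip1 (2.36), Pcdh17, Nrg2 (2.09), Pcdh15 (2.06), Kcnb2 (2.02) and Hsd17b1. Genes of the rule and genes that free RNA at 10% of the UMIs would account for were not ranked. Several are known from neurons, the synaptic protein Rimbp2, the ephrin receptor Epha5 and the potassium channel Kcnb2. Rimbp2 was at 28.4 CPM from 758 UMIs in the mutant library and at 1.94 CPM from 20 UMIs in the control, and in purer cells its ratio was 4.71. In Amh-zero cells Rimbp2 was at 3.90, Epha5 at 2.79, Rtn4rl1 at 1.46 and Kcnb2 at 1.36. Rtn4rl1 was at 3.26 in purer cells.

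The 10 lowest of the ranked genes were Rubcnl (-2.91), Samd12 (-2.58), Sdk2 (-2.49), Tsx (-2.43), Sulf1 (-2.17), Lpar3 (-2.10), Hopx (-2.09), Cpne8 (-2.06), Shc4 (-1.97) and Lhfp (-1.97). The germ cell gene Sycp3, at -2.53, was called lower but was left out of the ranking by the free RNA limit. Rubcnl, an autophagy protein, was at 5.35 CPM in the knockout and 40.4 CPM in the control library. Lpar3, a receptor of lysophosphatidic acid, was at 47.5 against 204 CPM, and Sulf1, which trims heparan sulfate, at 35.3 against 159 CPM. In Amh-zero cells these 3 were at -2.48, -2.10 and -1.92. Among cells with at least 2 Amh UMIs Sdk2 was at -1.71.

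**Figure D5:**
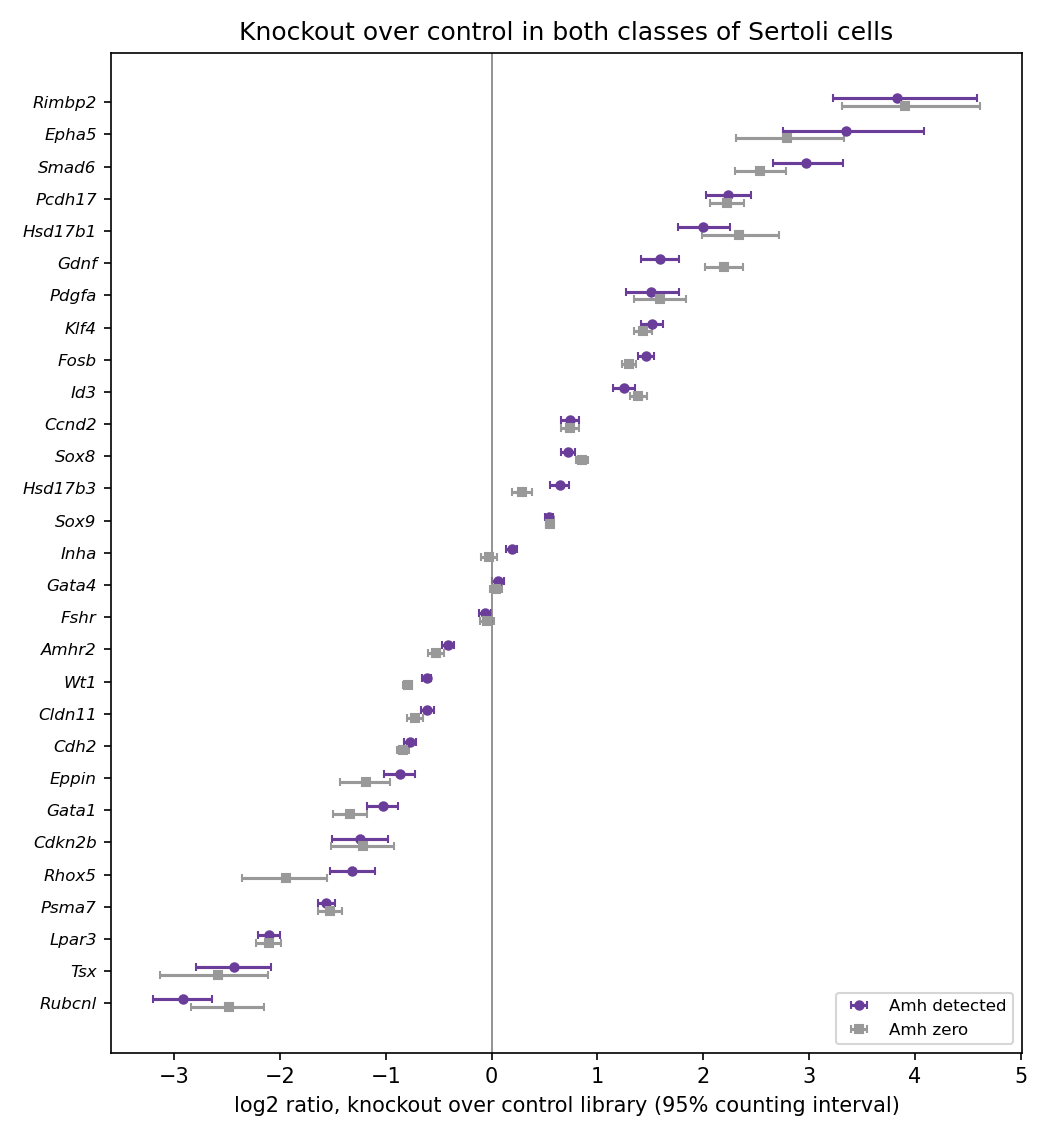
Log2 ratio of the knockout over the control library for 29 genes in Amh-detected (circles) and Amh-zero (squares) Sertoli cells, with 95% counting intervals. Both classes give the same side for the genes with the largest ratios, from Rimbp2 at 3.83 and 3.90 to Rubcnl at -2.91 and -2.48.

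Genes of cell stress were higher in the mutant library. Of 18 immediate-early genes 13 were called higher and 0 lower, beside 7.75% and 4.63% of all genes, with a median of 0.82. In Amh-zero cells 16 were called higher, where 11.3% of all genes were higher and 6.72% lower, with a median of 1.25. Klf4 was at 228 against 79.5 CPM (1.52), Fosb at 434 against 158 CPM (1.46) and Fos at 988 against 464 CPM (1.09), while Klf6 was at -0.28. Of 17 heat shock chaperones 6 were called higher and 0 lower, with a median of 0.38, led by Dnajb1 (1.17) and Hspa1b (1.11). In purer cells the higher counts were 8 of 18 and 3 of 16, with medians of 0.57 and 0.18, where 6.86% of all genes were called higher. Both lists respond to tissue dissociation, and the 2 suspensions were made apart, so genotype and preparation cannot be told apart here.

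Of 31 other proteasome subunits 0 were called, where 7.75% of all genes were higher and 4.63% lower. Their median was -0.14, from Psmd2 at -0.54 to Adrm1 at 0.31. Psmb2, a subunit of the β ring, was at 135 against 176 CPM (-0.38). In Amh-zero cells the median was -0.10 and 0 were called, where 11.3% of all genes were higher and 6.72% lower. In purer cells the medians were -0.30 in Amh-detected cells, with 0 called, and -0.33 in Amh-zero cells. Over all genes of the purer Amh-detected cells, 6.86% were called higher and 4.79% lower. Of the purer Amh-zero cells' subunits 0 were called higher and 4 lower, down to Psmd2 at -0.82, where 8.27% of all genes were higher and 6.22% lower. All these ratios were nearer to 0 than that of Psma7.

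Of 8 growth arrest genes and G1 cyclins, 1 was called higher, the cyclin Ccnd2 at 224 against 134 CPM (0.74), and 1 lower, the inhibitor Cdkn2b at 9.28 against 22.0 CPM (-1.24). Over all genes 7.75% were called higher and 4.63% lower. The other 6 were at 0.57 (Ccnd3), 0.11 (Cdk4), 0.05 (Cdkn1b), -0.42 (Cdk6), -0.44 (Rb1) and -0.46 (Cdkn2d). In Amh-zero cells Ccnd2 was at 0.74, Cdkn2b at -1.21, Ccnd3 at 1.18 and Cdkn2d at -1.11.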

How the data were processed

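What the authors deposited are unscaled UMI counts by gene and barcode. Cell Ranger 7.1.0 wrote them, per the file headers, and the genome build was mm10, per the submitters' processing notes. The annotation, strand setting and treatment of intronic reads are not given in the sources used here. Empty barcodes were still present (1707157 control and 1477364 mutant barcodes in all). GENCODE M21, the source of the coordinates, held 32158 of the 32285 gene identifiers.

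Cells were chosen by the rule given above and UMIs summed per class. For ratios, 0.5 was added to the counts of both classes. The 95% intervals are exact Poisson for levels, conditional for ratios and Clopper-Pearson for shares (scipy 1.17.1). Genes needed 30 UMIs over both classes and 20 CPM in the higher one. With 1 library per genotype no test was made. Calls and intervals were checked only on simulated Poisson counts with known ratios. Those counts hold no spread among cells or libraries beyond counting error, so the check does not cover such spread. Doublets were scored with Scrublet in scanpy 1.11.5 and kept, with their removal as an alternative. Its automatic threshold failed in the mutant library (0 cells marked), and the value found in the control was applied there too.

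Named genes are Psma7, the label's markers, the 2 highest and 2 lowest members of a list, all measured members of the AMH axis, Amh regulators and growth arrest lists, and the 10 highest and 10 lowest ratios, apart from unnamed, haemoglobin, ribosomal and mitochondrial genes. The rankings also left out genes of the rule and genes that free RNA at 10% of the UMIs would account for. Some further members of these lists, genes lower in purer cells and the neighbours of Amh were named after their values were seen. A few genes that this choice takes in are not reported here. Members and lists were chosen with earlier results of these data known. The alternatives were other limits on UMIs, genes, mitochondrial share, the Sertoli minimum, germ, division and Amh UMIs, thinning to 2000, 3000 or 5000 UMIs, depth standardisation, no CPM minimum or 100 UMIs per gene, centring on the median gene and 10% free RNA subtracted. Purer cells, and depth standardisation between libraries, were chosen after seeing the data.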

Additional observations from a re-analysis of the deposited data

Results flagged for a closer look

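Between Amh-detected and Amh-zero cells, 2 named genes had counting intervals on opposite sides of no difference in the 2 libraries. Wt1 was at -0.10 on the log2 scale in the control and 0.08 in the mutant library. Cpne8, a calcium-dependent membrane binder, was at -0.31 in the control and 0.37 in the mutant library. With 1 library each, the difference between the libraries was not tested, and none of these 4 ratios reached the 1.5-fold call.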

How the results depend on the processing

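No paired analysis was possible because each genotype has 1 library, and for the same reason no replicate was left out. The cause of the moves below was not tested. The share of non-dividing Sertoli cells with an Amh UMI, control then mutant library, was 26.4% and 60.0% with at least 2000 UMIs and 1000 genes, 21.5% and 47.2% with at most 10% mitochondrial UMIs, and 29.3% and 60.0% with a Sertoli minimum of 30 per 10000. It was 8.42% and 31.5% with at least 2 Amh UMIs and 28.0% and 59.4% in purer cells. Thinned to 2000, 3000 and 5000 UMIs it was 10.3%, 14.0% and 21.2%, and 36.8%, 48.0% and 62.2%. Without any germ or division UMI the control share was 20.4%. The log2 ratio of the Amh level was 2.08 with the Sertoli minimum of 30, 2.38 without germ or division UMIs, 2.09 in purer cells and 2.33 thinned to 3000 UMIs. The mutant library was higher in all of these.

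Counts of called genes moved more. Between the libraries, 622 genes were lower when thinned to 3000 UMIs, and without a CPM minimum 2339 were higher and 877 lower. Higher calls were 62.6% of all calls, 49.3% when thinned and 70.7% when centred on the median gene. Between Amh-detected and Amh-zero cells of the control, 288 were higher and 278 lower with at most 10% mitochondrial UMIs, 510 and 339 with at least 2 Amh UMIs, and 282 and 961 without a CPM minimum. There 105 were lower with the Sertoli minimum of 30 and 108 in purer cells, and 196 were higher when thinned and 276 with free RNA subtracted. In the mutant library 248 were higher with at most 10% mitochondrial UMIs, 43 without germ or division UMIs, 170 with at least 2 Amh UMIs, 26 when thinned, 38 at standardised depth and 146 with free RNA subtracted. With the Sertoli minimum of 30 there were 191 higher and 131 lower, in purer cells 119 and 101, in purer cells at standardised depth 27 and 65, and without a CPM minimum 237 and 1347.

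Called genes that changed sign between Amh-detected and Amh-zero cells were mostly those of stromal and myoid cells. With the Sertoli minimum of 30, Cxcl12 was at 0.22, Igf1 at 0.62, Pdgfra at 0.21, Igfbp7 at 0.38 and Nhsl2 at 0.095 in the control, and Inhba at 0.15 in the mutant library. In purer cells Cyp26b1 was at 0.068, Fhl2 at 0.084, Pdgfra at 0.14 and Myh11 at 0.32 in the control and Inhba at 0.018 in the mutant library. At standardised depth in purer cells the control had Osr2 at 0.37, Cxcl12 at 0.15, Fhl2 at 0.10, Pdgfra at 0.44, Igfbp7 at 0.17 and Myh11 at 1.14, and the mutant library Inhba at 0.24, Osr2 at 0.15, Cxcl12 at 0.00550, Igf1 at 0.36, Fhl2 at 0.40 and Vcam1 at 0.45. Pdgfra and Myh11 are among the 15 genes whose UMIs were limited in choosing purer cells, so their signs there depend on that choice. Between the libraries Igf1 was at -0.41 with the Sertoli minimum of 30.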
